A study of Mus musculus with 6 samples.

Results

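The clustered Hox genes are the homeobox genes named Hoxa, Hoxb, Hoxc or Hoxd with a number from 1 to 13, and 39 of the 22099 genes in the expression table carry such a symbol. They were chosen by symbol alone, and the 41 RefSeq rows that carry these symbols were summed per gene (Hoxa10 and Hoxb3 each have 2 rows). The RNA, selected for its poly(A) tail and sequenced, came from C57BL/6 mouse whole bone marrow that was infected on day 0 with the retrovirus BCR-ABL-p185-IRES-YFP and kept in culture for 14 days. BCR-ABL p185 is the fusion kinase of acute lymphoblastic leukaemia, and YFP marks cells that carry the virus. All 6 libraries share this virus and this culture. The labels call the cells transformed pro-B leukaemia cells and divide them by the genotype of Ikaros, a lymphoid transcription factor with zinc fingers, into ZnF4-/-, ZnF1-/- and wt. Fingers 1 and 4 lie at the edges of its DNA-binding domain, on either side of the fingers that contact the core motif. Each group has 2 biological replicates. The labels give neither the age of the mice nor a sort for YFP, so other marrow cells may be present in each culture.

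Values are RPKM, reads scaled to the length of the transcript and to the size of the library, so levels of different genes can be set beside each other on this scale. They were deposited with 1 decimal, and 0.1 RPKM is the smallest value above 0. The number of reads behind each library is unknown, and 10582 to 11119 genes per library had at least 1 RPKM. All 10 pro-B cell markers, among them Pax5 and Vpreb1, had at least 1 RPKM in every library, and their summed RPKM was 3549.0 and 2359.1 in ZnF4-/-, 3546.9 and 3010.2 in ZnF1-/- and 3193.3 and 2425.5 in wt. Markers of other marrow cells were present as well and are given beside the results they move with.

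Hox proteins are homeodomain transcription factors whose genes lie side by side in 4 clusters, A to D. Genes with low numbers sit at one end of a cluster and genes with high numbers at the other, and in the embryo they are switched on in this order along the body axis. Genes with the same number in different clusters are paralogues. In blood formation HoxA and HoxB genes are expressed in stem and early progenitor cells and fall as cells mature. Hoxb4 is known for expanding haematopoietic stem cells when overexpressed, Hoxb6 and Hoxb8 for immortalising mouse myeloid progenitors, and Hoxa9 with the partner gene Meis1 for driving leukaemia. Activity along a cluster is maintained by Trithorax proteins such as Mll1 and held back by Polycomb complexes.

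A Hox gene was counted as on when it had at least 1 RPKM in 2 or more of the 6 libraries. By this count 4 of the 39 genes were on, all in the HoxB cluster, namely Hoxb4, Hoxb6, Hoxb7 and Hoxb8. None of the 11 HoxA, 9 HoxC and 9 HoxD genes was on. Of the 35 genes not on, 33 stayed below 1 RPKM in all 6 libraries, and 2 reached it in exactly 1 library. These were Hoxb5, at 1.3 RPKM in ZnF4-/- replicate 1, and Hoxc10, at 1.4 RPKM in ZnF1-/- replicate 1. The lowest peak level among the genes on was 3.7 RPKM, that of Hoxb4. A total of 12 genes were listed at 0 in all libraries, 7 of them in HoxD, 3 in HoxB and 1 each in HoxA and HoxC.

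The number of Hox genes at 1 RPKM or more was 5 and 4 in ZnF4-/- replicates 1 and 2, 2 and 1 in ZnF1-/- and 1 and 1 in wt. The single gene in both wt libraries was Hoxb4. Summed over all 39 genes, the Hox level was 29.7 and 25.5 RPKM in ZnF4-/-, 11.4 and 6.3 in ZnF1-/- and 5.3 and 3.3 in wt. Both ZnF4-/- libraries stood above the other 4, and both ZnF1-/- libraries above both wt libraries.

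**Figure D1:**
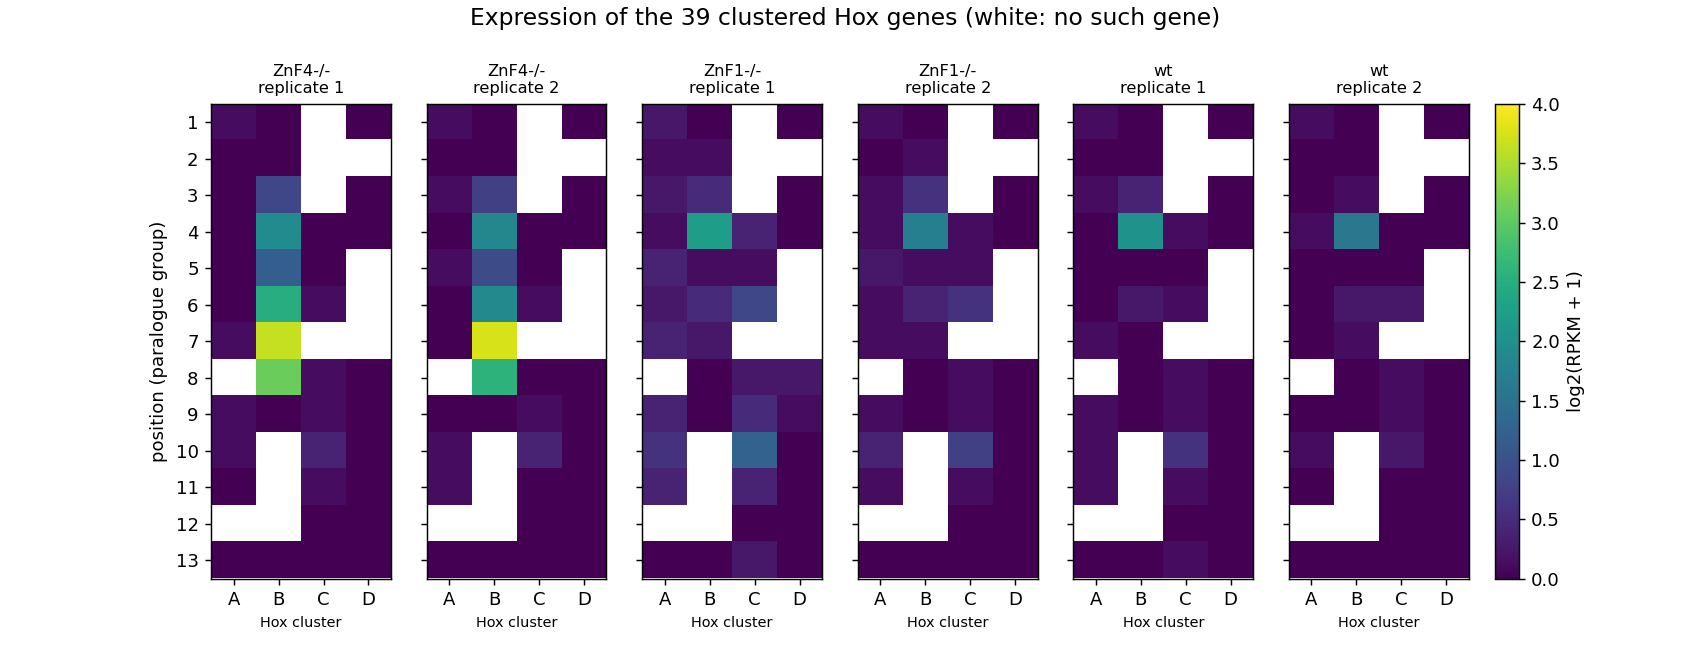
Expression of the 39 clustered Hox genes, with 1 panel per library, cluster on the horizontal axis and gene number on the vertical axis; colour is log2(RPKM + 1) and white marks positions with no such gene. Hoxb6, Hoxb7 and Hoxb8 stand out in both ZnF4-/- panels, Hoxb4 is present in all 6, and HoxD is at or near 0 throughout.

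RefSeq promoters, from 250 bases before to 50 bases after the start of transcription on GRCm38.p6, were given for 22 of the 39 Hox genes and 3 of the 10 HoxB genes. The promoters of Hoxb8, which passed the test in the ZnF4-/- cultures below, and of its cluster neighbour Hoxb4, which did not, are shown for comparison. Both lie on the + strand, Hoxb8 at chr11:96281655-96281954 and Hoxb4 at chr11:96318017-96318316. Capitals mark matches to 3 motifs searched on both strands, namely the Ikaros core GGGAA, which reads TTCCC on the other strand, the MEIS motif TGACAG, which reads CTGTCA, and the PBX and HOX composite TGATNNAT, which reads ATNNATCA.
Hoxb8: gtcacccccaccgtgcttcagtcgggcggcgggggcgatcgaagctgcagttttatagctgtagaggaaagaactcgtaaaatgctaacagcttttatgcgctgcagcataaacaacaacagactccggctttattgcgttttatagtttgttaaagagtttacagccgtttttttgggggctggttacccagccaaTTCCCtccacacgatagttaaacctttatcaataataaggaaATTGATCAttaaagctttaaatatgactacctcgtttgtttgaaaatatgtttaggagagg
Hoxb4: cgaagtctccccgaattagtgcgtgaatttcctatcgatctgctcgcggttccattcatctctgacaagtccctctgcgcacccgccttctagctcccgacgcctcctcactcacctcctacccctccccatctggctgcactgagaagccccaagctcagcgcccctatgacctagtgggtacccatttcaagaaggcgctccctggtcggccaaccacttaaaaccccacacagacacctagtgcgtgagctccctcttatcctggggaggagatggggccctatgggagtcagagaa
The Hoxb8 window holds TTCCC 53 bases before the start and a match to ATNNATCA 11 bases before it. The Hoxb4 window holds none of the 3 motifs. GGGAA or its complement was found in 62.7% of the 32851 mouse promoters of the same length, the MEIS motif in 19.2% and the composite in 8.85%. These matches describe letters and not binding. The Hoxb8 promoter holds 13 CpG dinucleotides at 42.3% GC and the Hoxb4 promoter 14 at 58.0% GC, against medians of 7 and 52.7% over all promoters.

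The HoxB cluster held most of the Hox transcripts in the ZnF4-/- cultures, and within it the genes from Hoxb8 to Hoxb5 carried the difference. Hoxb7 was listed at 11.6 and 12.6 RPKM in ZnF4-/-, at 0.2 and 0.1 in ZnF1-/- and at 0 and 0.1 in wt. Hoxb8 stood at 7.5 and 5.0 RPKM in ZnF4-/- and was listed at 0 in both ZnF1-/- and both wt libraries. Both genes thus had several RPKM in each ZnF4-/- library and were at or next to the smallest written value in the other 4. Hoxb6 stood at 4.6 and 2.7 RPKM in ZnF4-/-, 0.4 and 0.3 in ZnF1-/- and 0.2 and 0.2 in wt. Hoxb5, which was not on, had 1.3 and 0.9 RPKM in ZnF4-/-, 0.1 and 0.1 in ZnF1-/- and 0 in both wt libraries. For Hoxb5 to Hoxb8 the ZnF4-/- libraries did not overlap those of the other groups.

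Hoxb4 followed another pattern. It had 2.8 and 2.6 RPKM in ZnF4-/-, 3.7 and 2.3 in ZnF1-/- and 3.1 and 2.0 in wt, and the 3 groups overlapped. Hoxb3, next to it on the far side from Hoxb5, had 0.8 and 0.7 RPKM in ZnF4-/-, 0.4 and 0.5 in ZnF1-/- and 0.3 and 0.1 in wt, below 1 RPKM in every library but with no overlap between groups. The genes at both ends of the cluster were listed at or next to 0. Hoxb13 and Hoxb9 at one end and Hoxb1 at the other were listed at 0 in all 6 libraries, and Hoxb2 was at 0.1 RPKM in both ZnF1-/- libraries and at 0 in the other 4.

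Ordered by level in the ZnF4-/- group, Hoxb7 came first at 12.1 ± 0.707 RPKM (SD, n = 2), followed by Hoxb8 at 6.25 ± 1.77, Hoxb6 at 3.65 ± 1.34, Hoxb4 at 2.7 ± 0.141, Hoxb5 at 1.1 ± 0.283 and Hoxb3 at 0.75 ± 0.0707. In this order the replicate values of Hoxb6 and Hoxb4 overlapped, and those of the other neighbours did not. In ZnF1-/- the order was led by Hoxb4 at 3.0 ± 0.99 RPKM, with Hoxb3 at 0.45 ± 0.0707 and Hoxb6 at 0.35 ± 0.0707 close to each other. In wt it was again led by Hoxb4, at 2.55 ± 0.778 RPKM, with Hoxb3 and Hoxb6 both at 0.2 RPKM on average. Hoxb7 had a higher RPKM than 73.7% and 75.8% of all genes in ZnF4-/- replicates 1 and 2, Hoxb8 than 67.8% and 63.7%, and Hoxb6 than 62.1% and 58.3%.

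The 4 genes Hoxb5 to Hoxb8 together held 25.0 and 21.2 RPKM in ZnF4-/-, 0.7 and 0.5 in ZnF1-/- and 0.2 and 0.3 in wt. This was 84.2% and 83.1% of the summed Hox RPKM in ZnF4-/-, 6.1% and 7.9% in ZnF1-/- and 3.8% and 9.1% in wt. Hoxb4 alone made up 9.4% and 10.2% in ZnF4-/-, 32.5% and 36.5% in ZnF1-/- and 58.5% and 60.6% in wt. In these bulk cultures, fewer cells of a type and less RNA per cell cannot be told apart.

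**Figure D2:**
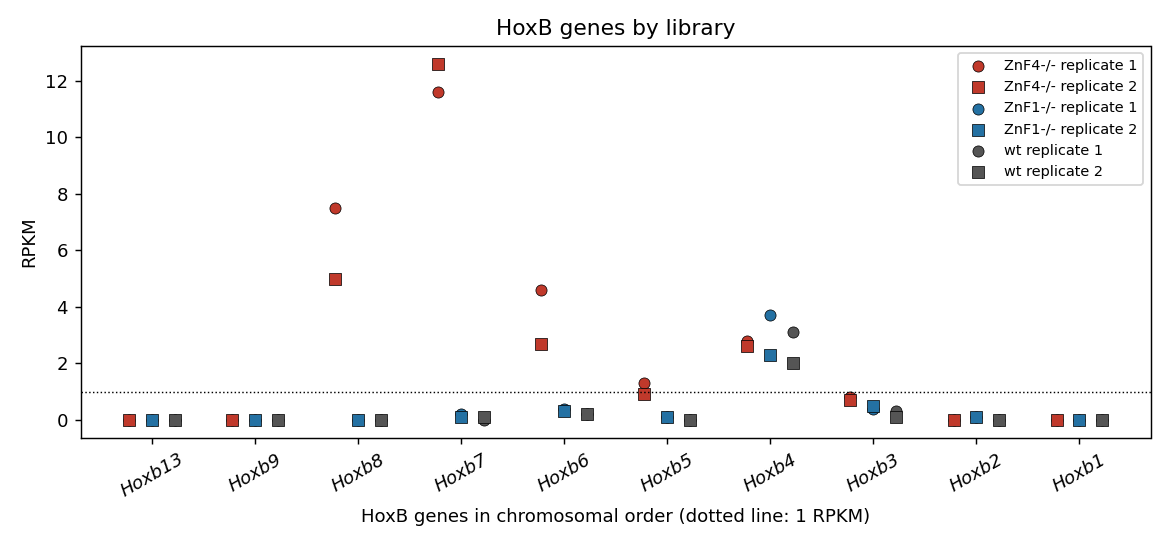
HoxB genes in their order along the chromosome from Hoxb13 to Hoxb1 (horizontal axis, evenly spaced) with RPKM on the vertical axis, 1 point per library, and a dotted line at 1 RPKM. In both ZnF4-/- libraries the genes from Hoxb8 to Hoxb5 are raised with their peak at Hoxb7, while at Hoxb4 all 6 libraries lie between 2.0 and 3.7 RPKM and the ends of the cluster lie at 0.

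Whether loss of finger 4 altered Hox genes was tested with limma on log2(RPKM + 1) over the 11345 genes with at least 1 RPKM in 2 or more libraries. Hoxb4, Hoxb6, Hoxb7 and Hoxb8 entered the test, and the 35 other Hox genes did not. Hoxb7 was higher in ZnF4-/- than in wt by 3.64 on this log2 scale (SE 0.15, limma adjusted p = 0.0039), Hoxb8 by 2.84 (SE 0.2, adjusted p = 0.007) and Hoxb6 by 1.92 (SE 0.23, adjusted p = 0.023). Hoxb4 differed by 0.08 (SE 0.25, adjusted p = 1.0). Thus 3 of the 4 tested Hox genes were called, all higher, where 2.72% of all genes tested were called, 1.43% higher and 1.3% lower. Those 3 genes passed the filter on low values through the ZnF4-/- libraries alone, so their number supports nothing beyond the values of each gene. As wt is at or near 0, the size of the difference depends on the pseudocount, and with 0.1 in place of 1 it was 6.43 for Hoxb7, 5.96 for Hoxb8 and 3.6 for Hoxb6.

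The adjusted p of Hoxb7 was 0.022 to 0.058 when each of the 6 libraries was left out in turn, and the call was lost without ZnF4-/- replicate 1 (0.058). That of Hoxb8 was 0.031 to 0.058, with the call lost without ZnF4-/- replicate 1 (0.058), wt replicate 1 (0.058) or wt replicate 2 (0.057). Hoxb6 lost its call whichever library was left out, at 0.059 to 0.13. The differences themselves stayed at 3.57 to 3.71 for Hoxb7, 2.58 to 3.09 for Hoxb8 and 1.62 to 2.22 for Hoxb6, and these fits have fewer residual degrees of freedom. With no filter on low values, the adjusted p was 0.0027 for Hoxb7, 0.021 for Hoxb8 and 0.084 for Hoxb6.

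Against ZnF1-/-, with the same ZnF4-/- libraries as above, Hoxb7 was higher in ZnF4-/- by 3.51 (SE 0.15, limma adjusted p = 0.0053), Hoxb8 by 2.84 (SE 0.2, adjusted p = 0.0097) and Hoxb6 by 1.75 (SE 0.23, adjusted p = 0.024). Hoxb4 differed by -0.09 (SE 0.25, adjusted p = 0.92). Of all genes tested, 5.37% were called in this comparison, 1.61% higher and 3.75% lower. The Hoxb7 call was lost without ZnF4-/- replicate 1 (adjusted p 0.057), ZnF1-/- replicate 1 (0.083) or ZnF1-/- replicate 2 (0.056), and the Hoxb8 call without the same libraries (0.058 without ZnF4-/- replicate 1 or ZnF1-/- replicate 2 and 0.086 without ZnF1-/- replicate 1). The Hoxb6 call was lost without any single library other than wt replicate 2, at 0.052 to 0.14. With no filter on low values Hoxb6 had an adjusted p of 0.069.

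With finger 1 lost, no tested Hox gene passed the test. ZnF1-/- against wt differed by 0.17 for Hoxb4 (SE 0.25), 0.17 for Hoxb6 (SE 0.23) and 0.13 for Hoxb7 (SE 0.15), each with a limma adjusted p of 1.0. Hoxb8 was listed at 0 in all 4 libraries. Of all 11345 genes, limma called 0.0% in this comparison, while 1281 had an unadjusted p under 0.05. Of the 4 Hox genes 0 had an unadjusted p under 0.05, the lowest being 0.417.

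Over all 39 Hox genes, both ZnF4-/- libraries were above both wt libraries for 5, namely Hoxb3, Hoxb5, Hoxb6, Hoxb7 and Hoxb8, and below them for 0. Over all 22099 genes this held for 11.0% and 8.97%. The same 5 genes, which lie from Hoxb8 to Hoxb3 with Hoxb4 between them, were higher in ZnF4-/- than in all 4 other libraries, as were 7.24% of all genes, and 0 were lower (6.72% of all genes). ZnF1-/- stood above wt for 10 Hox genes and below it for 0, where all genes gave 13.2% and 7.57%. These 10 were Hoxb2, Hoxb3, Hoxb5 and Hoxb6 with 3 HoxA and 3 HoxC genes. ZnF4-/- stood below ZnF1-/- for 9, none of them among the genes on, where all genes gave 15.5%, and above it for 5 (12.7% of all genes).

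**Figure D3:**
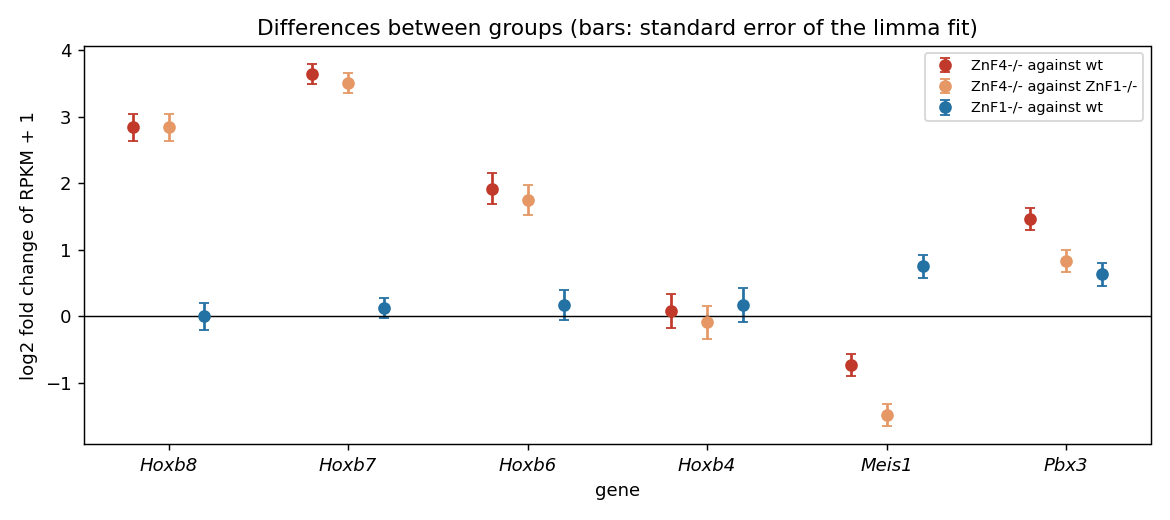
Differences in log2(RPKM + 1) for the 4 tested Hox genes and for the partner genes Meis1 and Pbx3 in each comparison, with bars giving the standard error of the limma fit (n = 2 libraries per group). Hoxb6, Hoxb7 and Hoxb8 lie between 1.75 and 3.64 in the comparisons of ZnF4-/-, while Hoxb4 lies between -0.09 and 0.17 throughout.

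The genes that flank the HoxB cluster, looked up after the Hox values had been seen, overlapped between groups where they were expressed, with Skap1 as the exception. On the Hoxb1 side, the sorting nexin gene Snx11 had 6.6 and 5.6 RPKM in ZnF4-/-, 7.3 and 5.4 in ZnF1-/- and 6.9 and 5.1 in wt, a difference of 0.03 between ZnF4-/- and wt (limma adjusted p = 1.0). Cbx1, which encodes a heterochromatin protein, had 77.9 and 54.5 RPKM in ZnF4-/-, 60.0 and 40.4 in ZnF1-/- and 75.2 and 51.6 in wt (ZnF4-/- against wt 0.06, adjusted p = 1.0). The adaptor gene Skap1 on the same side, which was too low to be tested, had 0.6 and 0.8 RPKM in ZnF4-/-, 0.1 and 0.3 in ZnF1-/- and 0.2 and 0.3 in wt. Beyond Hoxb13, Calcoco2 and Ttll6 were listed at 0 in all libraries. On that side Atp5g1, which encodes a mitochondrial protein, had 6.2 and 4.0 RPKM in ZnF4-/-, 5.8 and 3.0 in ZnF1-/- and 5.9 and 3.0 in wt.

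The sources used here do not say whether reads were counted by strand. In the GENCODE M21 annotation no exon of Hoxb4, Hoxb6, Hoxb7 or Hoxb8 shares bases with an exon of another gene. Exons on the opposite strand cover 52.9% of the exon bases of Hoxb3, 27.3% of those of Hoxb2 and 3.59% of those of Hoxb5, so the values of Hoxb3 and Hoxb2 are uncertain. Of the noncoding genes inside the Hox clusters, 10 were found in the table, none was tested, and the highest value was 0.2 RPKM, reached by Mir10a in wt replicate 1, Mir196a-1 in ZnF1-/- replicate 2 and Hoxa11as in ZnF1-/- replicate 1. A mature miRNA is not measured by polyadenylated RNA.

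The 29 HoxA, HoxC and HoxD genes were low throughout and were highest in ZnF1-/-, above all in replicate 1. Their summed RPKM was 1.1 and 1.0 in ZnF4-/-, 6.5 and 2.9 in ZnF1-/- and 1.7 and 0.9 in wt. Of the 20 genes above 0 in at least 1 library, 18 were higher in ZnF1-/- replicate 1 than in each of the other 5 libraries, and so were 22.1% of the 4034 genes with a highest value in the same range. None of the 29 was tested, since none was on. By cluster, HoxA summed to 0.4 and 0.5 RPKM in ZnF4-/-, 2.5 and 1.2 in ZnF1-/- and 0.6 and 0.3 in wt. HoxC summed to 0.7 and 0.5 RPKM in ZnF4-/-, 3.7 and 1.7 in ZnF1-/- and 1.1 and 0.6 in wt. In HoxD, Hoxd8 at 0.2 and Hoxd9 at 0.1 RPKM in ZnF1-/- replicate 1 were the values above 0.

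The highest gene of HoxC was Hoxc10, a posterior gene known from hindlimb and lumbar patterning, with 0.3 and 0.3 RPKM in ZnF4-/-, 1.4 and 0.7 in ZnF1-/- and 0.5 and 0.2 in wt. Hoxc6 had 0.1 and 0.1 RPKM in ZnF4-/-, 0.8 and 0.5 in ZnF1-/- and 0.1 and 0.2 in wt. The highest of HoxA was Hoxa10, which is known from haematopoietic progenitors, with 0.1 and 0.1 RPKM in ZnF4-/-, 0.5 and 0.3 in ZnF1-/- and 0.1 and 0.1 in wt. For these 3 genes both ZnF1-/- libraries exceeded all others, and in total 6 of the 29 genes did so (Hoxa5, Hoxa6, Hoxa10, Hoxc5, Hoxc6 and Hoxc10), beside 8.96% of all genes. Hoxa9, the HoxA gene most often named in leukaemia, and Hoxa7 beside it each had 0.1 and 0 RPKM in ZnF4-/-, 0.3 and 0.1 in ZnF1-/- and 0.1 and 0 in wt, so these groups overlapped. Values this low lie within a few steps of the smallest written value.

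Markers of other cells moved with these genes. The 14 stromal and endothelial markers summed to 93.9 and 94.7 RPKM in ZnF4-/-, 376.7 and 211.3 in ZnF1-/- and 100.7 and 104.0 in wt, so ZnF1-/- replicate 1 was highest and replicate 2 next, as for the HoxA, HoxC and HoxD sum. In this list 8 to 12 genes were at 1 RPKM or more in the ZnF4-/- and ZnF1-/- libraries and 7 in each wt library, and Lepr was listed at 0 in every library except ZnF1-/- replicate 1. In ZnF1-/- against wt all 12 tested genes of this list had positive differences (median 1.25). Of these, 9 had an unadjusted limma p under 0.05, as had 1281 of all 11345 genes. After adjustment limma called 0 of them and 0.0% of all genes. In ZnF4-/- against ZnF1-/- 4 of the 12 were called lower and 1 higher, where all genes gave 3.75% and 1.61%. Among them the secreted glycoprotein gene Thbs1 differed by -2.17 and the collagen gene Col1a2 by -2.07 (both limma adjusted p = 0.032), and the endothelial genes Pecam1 by -1.23 (adjusted p = 0.021) and Cdh5 by 1.28 (adjusted p = 0.028). The 14 macrophage and monocyte markers, all at 1 RPKM or more everywhere, summed to 421.0 and 456.9 RPKM in ZnF4-/-, 1126.1 and 1222.6 in ZnF1-/- and 397.9 and 459.4 in wt, with replicate 2 the higher of the ZnF1-/- libraries. In ZnF1-/- against wt all 14 had positive differences (median 1.35). All 14 had an unadjusted limma p under 0.05, and 0 were called after adjustment, where limma called 0.0% of all genes. In ZnF4-/- against wt their median was 0.06. In ZnF4-/- against ZnF1-/- 8 of the 14 were called lower, where all genes gave 3.75%. These were led by Tyrobp (-1.92, limma adjusted p = 0.012), Mpeg1 (-1.87, 0.043), Fcer1g (-1.73, 0.014) and Cd68 (-1.49, 0.024). The calls of these 4 named macrophage genes were lost without either library of these mutants (0.059 to 0.22). That of Mpeg1 was also lost with no filter on low values (0.14), with a filter of 5 RPKM (0.051), with quantile normalization (0.05) and with scaled libraries (0.06), and that of Cd68 with no filter (0.056). The calls of Thbs1, Col1a2, Pecam1 and Cdh5 were lost whichever single library was left out (0.052 to 0.19). The called genes of both lists that are not named here were not followed in this way. The part of these cells in the HoxA, HoxC and HoxD values was not tested.

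**Figure D4:**
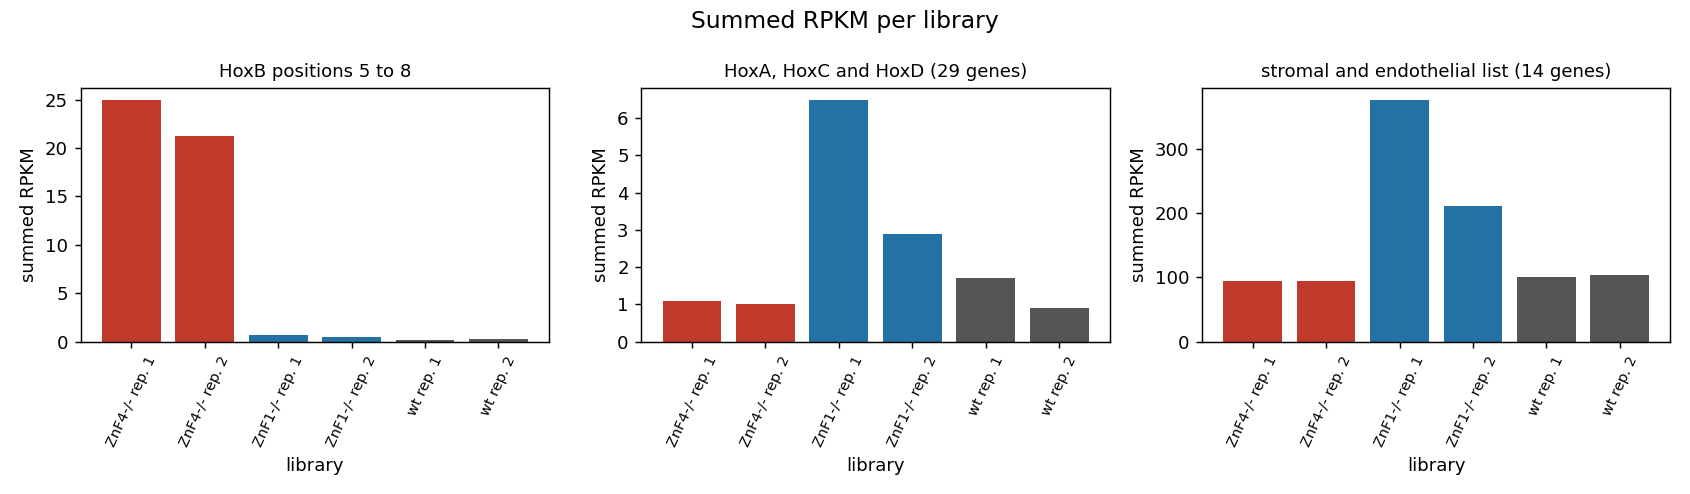
Summed RPKM in each library for Hoxb5 to Hoxb8, for the HoxA, HoxC and HoxD genes, and for the stromal and endothelial marker list; bars start at 0. Hoxb5 to Hoxb8 sum to 25.0 and 21.2 RPKM in ZnF4-/- and to at most 0.7 RPKM in the other libraries, whereas the other clusters and the marker list are highest in ZnF1-/- replicate 1.

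No summed marker list had the HoxB pattern of both ZnF4-/- libraries above the other 4. Such sums are carried by their most abundant genes and can hide a single low gene, as with Cdh5 below. The granulocyte markers summed to 6.1 and 53.0 RPKM in ZnF4-/-, 1.8 and 1625.2 in ZnF1-/- and 530.5 and 0.5 in wt. Among them Prtn3 had 0 and 0.1 RPKM in ZnF4-/-, 0.1 and 1.6 in ZnF1-/- and 2.7 and 0 in wt, and Ltf 0.2 and 1.3 in ZnF4-/-, 0 and 89.8 in ZnF1-/- and 18.4 and 0.1 in wt. Mast cell markers summed to 4.8 and 3.8 RPKM in ZnF4-/-, 0.5 and 7.6 in ZnF1-/- and 22.2 and 0.4 in wt, and Cpa3 and Mcpt8 were highest in wt replicate 1, at 11.7 and 5.9 RPKM, with 0.3 and 0 in wt replicate 2. Erythroid and megakaryocyte markers summed to 23.3 and 31.1 RPKM in ZnF4-/-, 28.8 and 33.4 in ZnF1-/- and 54.0 and 19.4 in wt, with Ppbp and Hbb-b1 highest in wt replicate 1 at 4.3 and 12.0. Most of these sums was Pf4, at 21.5 and 29.4 RPKM in ZnF4-/-, 26.9 and 27.7 in ZnF1-/- and 30.5 and 18.6 in wt. No gene of these 3 lists was called by limma in any comparison. Without wt replicate 1 and ZnF1-/- replicate 2, the libraries with most granulocyte transcripts, the differences in ZnF4-/- against wt were 3.57 for Hoxb7, 2.84 for Hoxb8 and 1.92 for Hoxb6, with limma adjusted p of 0.3, 0.34 and 0.42. That fit has 1 library each in ZnF1-/- and wt and called 0 of all genes tested, so the lost calls say nothing about the Hox genes.

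Of the genes of these marker lists named here, Cdh5 had the HoxB pattern, and Rag1 had its difference against wt alone. Kit, which is in none of these lists and is described below, had the HoxB pattern as well. The endothelial cadherin gene Cdh5 had 2.1 and 1.3 RPKM in ZnF4-/-, 0.1 and 0.1 in ZnF1-/- and 0 in both wt libraries (ZnF4-/- against wt 1.42, SE 0.18, limma adjusted p = 0.027), a call lost without any single library (0.068 to 0.16). The endothelial receptor gene Kdr did not follow it, at 0.7 and 0.9 RPKM in ZnF4-/-, 1.5 and 1.6 in ZnF1-/- and 0.1 and 0.1 in wt, nor did Pecam1, at 9.9 and 9.4 RPKM in ZnF4-/-, 25.8 and 22.4 in ZnF1-/- and 18.6 and 18.3 in wt. The part of endothelial cells in the HoxB values was not tested. Of the 10 pro-B markers, the recombinase gene Rag1 was called in ZnF4-/- against wt (31.6 and 33.3 RPKM in ZnF4-/-, 5.4 and 8.7 in wt, difference 2.09, adjusted p = 0.023, and 0.057 to 0.17 without single libraries), and it stood at 29.2 and 35.9 RPKM in ZnF1-/-. In ZnF4-/- against wt 5 of the 10 pro-B markers had positive and 5 negative differences (median -0.04), and 1.43% of all genes were called higher. Dntt, of the same list, was lower in ZnF4-/-, with 79.4 and 40.6 RPKM there, 205.7 and 129.2 in ZnF1-/- and 189.2 and 161.4 in wt. T and NK cell markers summed to 19.0 and 15.8 RPKM in ZnF4-/-, 55.5 and 29.2 in ZnF1-/- and 47.6 and 28.3 in wt. Most of this sum was Lck, at 18.1 and 15.0 RPKM in ZnF4-/-, 53.4 and 26.6 in ZnF1-/- and 46.2 and 27.4 in wt. Cd3e, Cd3g, Cd8a and Ncr1 were listed at 0 in every library. Of the same list, Cd4 was listed at 0 in both ZnF4-/- libraries, with 1.7 and 2.0 RPKM in ZnF1-/- and 0.1 and 0.1 in wt. It differed by -1.51 in ZnF4-/- against ZnF1-/- (limma adjusted p = 0.012), and that call was lost without either library of these mutants (0.059 to 0.11). Cd4 passed the filter on low values through the ZnF1-/- libraries alone, and Cdh5 through the ZnF4-/- libraries alone. The calls of Cd4 and Cdh5 therefore support nothing beyond the values of each gene.

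Hox proteins bind DNA with homeodomain partners of the TALE class, the Pbx, Meis and Pknox proteins, and the partner genes did not move together. All 9 were found and 6 were tested. Meis1 had 0.2 and 0.2 RPKM in ZnF4-/-, 2.6 and 2.1 in ZnF1-/- and 1.2 and 0.8 in wt. Pbx3 had 3.9 and 4.0 RPKM in ZnF4-/-, 1.5 and 2.1 in ZnF1-/- and 0.9 and 0.7 in wt. Neither gene overlapped between groups, and Meis1 was lowest in ZnF4-/- where Pbx3 was highest. Of all genes, 6.72% were lower and 7.24% higher in both ZnF4-/- libraries than in the 4 others.

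Between ZnF4-/- and ZnF1-/-, Meis1 differed by -1.48 (SE 0.17, limma adjusted p = 0.02) and was called lower, while Pbx3 differed by 0.83 (adjusted p = 0.063). Between ZnF4-/- and wt, Pbx3 was called higher by 1.46 (SE 0.17, adjusted p = 0.023), while Meis1 differed by -0.73 (adjusted p = 0.13). Between ZnF1-/- and wt none was called. Meis1 differed by 0.75 (limma adjusted p = 0.16) and Pbx3 by 0.63 (adjusted p = 0.21). Of the 6 partners 2 had an unadjusted p under 0.05, as had 1281 of all 11345 genes. Median differences of the 6 tested partners were -0.21 in ZnF4-/- against ZnF1-/-, -0.07 in ZnF4-/- against wt and 0.27 in ZnF1-/- against wt (over all genes tested 0.04 in both ZnF4-/- comparisons and -0.01 in ZnF1-/- against wt). The Meis1 call was lost without either ZnF4-/- or either ZnF1-/- library (0.066 to 0.14), and the Pbx3 call without any single library (0.051 to 0.17).

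Pknox1 had 25.0 and 22.6 RPKM in ZnF4-/-, 21.6 and 22.1 in ZnF1-/- and 24.9 and 23.5 in wt, and Pbx2 had 21.6 and 15.8 in ZnF4-/-, 21.8 and 18.3 in ZnF1-/- and 23.3 and 15.5 in wt. Pknox1 was slightly lower in both ZnF1-/- libraries than in the other 4, as were 4.76% of all genes. Pbx2 and Pbx4, the second at 0.8 to 1.8 RPKM, overlapped between groups. Meis2, Meis3 and Pknox2 were not tested, and of these Meis3 reached 1.8 RPKM in ZnF1-/- replicate 1. The RefSeq promoter of Meis1, the partner gene best known beside Hox genes in leukaemia, lies on the - strand of the same chromosome as HoxB at chr11:19018920-19019219 and is shown with the same motifs in capitals.
Meis1: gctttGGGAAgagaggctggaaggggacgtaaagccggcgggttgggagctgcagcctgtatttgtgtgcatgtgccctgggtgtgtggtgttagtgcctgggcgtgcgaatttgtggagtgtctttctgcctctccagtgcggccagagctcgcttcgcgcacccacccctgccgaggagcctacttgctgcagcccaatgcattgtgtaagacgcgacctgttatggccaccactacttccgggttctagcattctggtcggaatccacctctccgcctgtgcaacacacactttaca
It holds GGGAA 245 bases before the start, and 15 CpG dinucleotides at 58.3% GC.

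**Figure D5:**
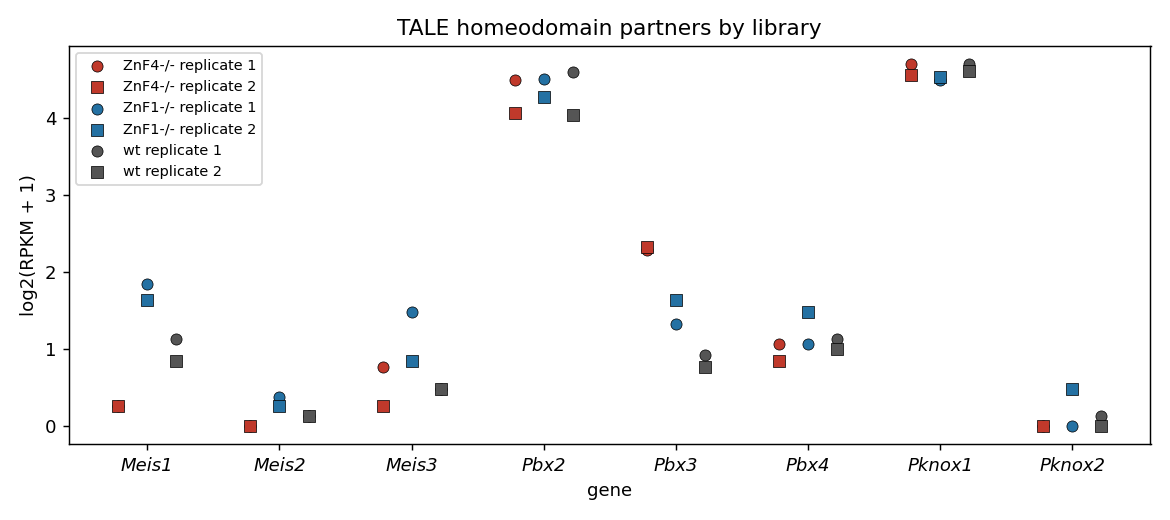
The TALE partner genes described in the text (horizontal axis) with log2(RPKM + 1) on the vertical axis, 1 point per library. Pbx3 is highest in both ZnF4-/- libraries, Meis1 is lowest there, and Pknox1 and Pbx2 are the highest partners in every library.

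In the fit without a replicate block, no tested chromatin regulator of Hox clusters passed the threshold. Among the activators (Trithorax, DOT1L complex and CDX genes), 19 were found and 16 tested, and 0 were called by limma in each comparison, with 0 at an unadjusted p under 0.05 in each ZnF4-/- comparison and 1 in ZnF1-/- against wt. Over all 11345 genes, limma called 2.72% in ZnF4-/- against wt, 5.37% in ZnF4-/- against ZnF1-/- and 0.0% in ZnF1-/- against wt. In the same order, 1329, 2195 and 1281 genes had an unadjusted p under 0.05. Cdx1, Cdx2 and Cdx4, activators of posterior Hox genes in the embryo, were listed at 0 in all libraries. Mll1, the methyltransferase that maintains Hox transcription (listed under this older symbol of Kmt2a), had 17.6 and 18.7 RPKM in ZnF4-/-, 11.9 and 21.6 in ZnF1-/- and 16.5 and 23.5 in wt. The lowest p values in this list were those of Mllt3, a DOT1L partner, with 5.5 and 6.4 RPKM in ZnF4-/-, 4.6 and 5.7 in ZnF1-/- and 7.0 and 10.1 in wt (ZnF1-/- against wt -0.62, adjusted p = 0.37), and of Aff1, with 26.6 and 21.5 RPKM in ZnF4-/-, 27.9 and 29.3 in ZnF1-/- and 32.0 and 29.1 in wt (ZnF4-/- against wt -0.34, adjusted p = 0.59). List medians were 0.07 in ZnF4-/- against wt, 0.18 in ZnF4-/- against ZnF1-/- and -0.11 in ZnF1-/- against wt.

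The Polycomb list held 23 genes, among them Kdm6a and Kdm6b, demethylases that remove the Polycomb mark and so oppose the other members. All were found and tested, each had at least 1 RPKM in every library, and 0 were called by limma in each comparison, with 1 at an unadjusted p under 0.05 in each ZnF4-/- comparison and 0 in ZnF1-/- against wt. The numbers over all genes are those given with the activators. Pcgf2, a subunit of Polycomb repressive complex 1, had 12.1 and 7.7 RPKM in ZnF4-/-, 3.6 and 2.6 in ZnF1-/- and 5.3 and 3.3 in wt. Its ZnF4-/- libraries lay above the other 4, as did those of Phc1, given next, and of 7.24% of all genes. Pcgf2 differed by 1.04 against wt (SE 0.3, limma adjusted p = 0.22) and by 1.39 against ZnF1-/- (adjusted p = 0.069, or 0.037 after quantile normalization and 0.032 after scaling each library to the same sum). Phc1, of the same complex, had 24.5 and 17.3 RPKM in ZnF4-/-, 15.3 and 16.1 in ZnF1-/- and 16.5 and 12.7 in wt (ZnF4-/- against wt 0.48, adjusted p = 0.56). List medians were 0.03 in ZnF4-/- against wt, 0.16 in ZnF4-/- against ZnF1-/- and -0.09 in ZnF1-/- against wt.

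Of 15 genes known beside HoxA and Meis1 in progenitors and leukaemia, 11 were tested. In ZnF4-/- against wt 1 was called higher and 1 lower, and in ZnF4-/- against ZnF1-/- the same 1 and 1. Over all genes tested, 1.43% were called higher and 1.3% lower against wt, and 1.61% and 3.75% against ZnF1-/-. In ZnF1-/- against wt 0 were called and 5 had an unadjusted p under 0.05, as had 1281 of all 11345 genes. The gene called higher was Kit, the stem cell factor receptor, with 16.2 and 15.4 RPKM in ZnF4-/-, 1.0 and 1.6 in ZnF1-/- and 0.4 and 0.3 in wt. It differed by 3.64 in ZnF4-/- against wt (SE 0.18, limma adjusted p = 0.0049) and by 2.88 against ZnF1-/- (SE 0.18, adjusted p = 0.0082). The gene called lower was Mycn, a MYC family transcription factor, with 4.5 and 3.4 RPKM in ZnF4-/-, 19.5 and 21.5 in ZnF1-/- and 28.2 and 16.2 in wt (-2.19, adjusted p = 0.029, against wt, and -2.13, adjusted p = 0.026, against ZnF1-/-). Both Kit calls were lost without either ZnF4-/- library (0.056 to 0.097), that against ZnF1-/- also without either ZnF1-/- library (0.058 to 0.083), and the Mycn call against wt without any library (0.057 to 0.19) and against ZnF1-/- without either library of these mutants (0.1 to 0.16). Medians over the list were -0.17 in ZnF4-/- against wt, 0.03 in ZnF4-/- against ZnF1-/- and 0.29 in ZnF1-/- against wt.

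Among homeobox genes outside the clusters and their relatives, 40 were found and 18 tested. In each ZnF4-/- comparison 1 was called higher and 1 lower. Of all genes tested, 1.43% were called higher and 1.3% lower against wt, and 1.61% and 3.75% against ZnF1-/-. In ZnF1-/- against wt 0 were called, as were 0.0% of all genes, and 0 had an unadjusted p under 0.05 (1281 of all 11345 genes). Dlx1, a homeobox gene known from the forebrain, had 0.2 and 0.2 RPKM in ZnF4-/-, 14.9 and 9.0 in ZnF1-/- and 18.3 and 14.0 in wt, and was the gene called lower in ZnF4-/- than in wt (difference -3.83, SE 0.27, limma adjusted p = 0.007). Dlx1 has an antisense partner, and reads of the pair cannot be told apart without strand. Against ZnF1-/- the difference was -3.39 (adjusted p = 0.011). Each Dlx1 call was lost without either ZnF4-/- library or either library of the group it was set against, at 0.055 to 0.1. List medians were 0.04 in ZnF4-/- against wt, 0.03 in ZnF4-/- against ZnF1-/- and 0.07 in ZnF1-/- against wt.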

How the data were processed

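Polyadenylated RNA of 6 cultures, 2 biological replicates each of ZnF4-/-, ZnF1-/- and wt, was sequenced by the authors. The deposited values are RPKM per RefSeq transcript, per the file headers, and TopHat, bedtools and the build mm9 are named without versions in the submitters' processing notes. The handling of strand, of overlapping transcripts and of shared reads is not given in the sources used. The depth is unknown, as no step of 1 read was visible in the rounded values, so no counting interval is given.

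The 26531 rows gave 22099 genes after summing over rows with one symbol. A spreadsheet had turned some symbols into numbers, of which 39 were restored through their accession and 1 was not, and 1 row without a gene was left out. The 11345 genes that reached 1 RPKM in 2 or more libraries entered a limma fit (limma 3.58.1, R 4.3.3) of log2(RPKM + 1) with a mean for each of the 3 groups over all 6 libraries and a trended prior. Tests were 2-sided, with Benjamini-Hochberg adjustment across these genes and a cutoff of 0.05. This fit had 3 residual and 2.32 prior degrees of freedom. Differences on this scale understate the change of low genes. Tables were handled with Python 3.11.15 and pandas 2.3.3.

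Named by rule were every Hox gene that was on and the highest gene of each cluster, and from the other lists each gene past the threshold (at most the 4 with the largest difference per list and comparison), or otherwise the pair with the lowest p. Some genes that this rule names are not reported here. The Hox genes, the gene lists and the markers were chosen with earlier results of these data known. RefSeq promoters and the GENCODE M21 annotation use GRCm38, and no mm9 coordinates were converted. Alternatives were other pseudocounts, filters, normalizations, row choices and on thresholds, the replicate block, fits of 4 libraries and leaving out libraries.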

Additional observations from a re-analysis of the deposited data

How the results depend on the processing

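The number of Hox genes on was 4, and 8 at 0.5 RPKM in place of 1 (Hoxb3, Hoxb5, Hoxc6 and Hoxc10 were added). At 2 RPKM, with the highest row per gene and with scaled libraries it was 4, and with quantile normalization 5. The number of Hox genes called in ZnF4-/- against wt was 3, and 0 to 2 without single libraries, 0 without wt replicate 1 and ZnF1-/- replicate 2, and 1 with the replicate block and no filter on low values. In ZnF4-/- against ZnF1-/- it was 3, with 0 to 3 without single libraries 0 without the same pair of libraries and 4 with no filter, with or without the replicate block (Hoxb7 and Hoxb8 higher, Hoxb2 and Hoxc5 lower, and Hoxb6 lost). In ZnF1-/- against wt it was 0, and 2 with no filter, with or without the replicate block. The 2 were Hoxb2 and Hoxc5, each at 0.1 RPKM in both ZnF1-/- libraries and 0 in the other 4, the smallest written value with no spread. Leaving out libraries lowers the residual degrees of freedom.

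A replicate block left the Hox calls at 3 in each ZnF4-/- comparison and 0 in ZnF1-/- against wt. Over all genes the block moved the calls to 1809 (15.9%, from 309) in ZnF4-/- against wt, 3979 (35.1%, from 609) in ZnF4-/- against ZnF1-/- and 1502 (13.2%, from 0) in ZnF1-/- against wt. Deviations of libraries with the same number correlated across genes at 0.754 for ZnF4-/- and wt, 0.715 for ZnF4-/- and ZnF1-/- and 0.5 for ZnF1-/- and wt. The labels give no source shared by libraries of the same number. In ZnF1-/- against wt the block called 13 of the 14 macrophage and monocyte markers higher. It also called 10 of the 12 tested stromal and endothelial markers higher, where 10.4% of all genes were called higher. Among regulators and partners the block added calls for Pcgf2 (adjusted p 0.0038 in ZnF4-/- against wt and 0.0014 against ZnF1-/-), Mllt3 (0.045 in ZnF4-/- and 0.022 in ZnF1-/- against wt), Meis1 (0.023 in ZnF4-/- and 0.027 in ZnF1-/- against wt), Pbx3 (0.013 in ZnF4-/- against ZnF1-/-) and Kit (0.036 in ZnF1-/- against wt). In ZnF4-/- against ZnF1-/- it called 5 of the 23 genes of the Polycomb list and 2 of the 16 tested activators, all higher. Over all genes 15.9% were called higher in that comparison.

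The sign turned for uncalled values alone. Without single libraries, Hoxb4 ranged over -0.35 to 0.16 in ZnF4-/- against ZnF1-/- (turned without ZnF1-/- replicate 1), -0.15 to 0.3 in ZnF4-/- against wt (without wt replicate 2) and -0.09 to 0.42 in ZnF1-/- against wt (without either of these). With quantile normalization, with or without the replicate block, it was 0.02 in ZnF4-/- against ZnF1-/-. In ZnF1-/- against wt, Phc1 ranged over -0.07 to 0.29 (turned without wt replicate 2) and Mycn over -0.44 to 0.32 (without wt replicate 1 or ZnF1-/- replicate 1). Without wt replicate 1 and ZnF1-/- replicate 2 it turned in ZnF1-/- against wt for Pcgf2 (0.1), Mycn (0.25) and Dlx1 (0.08). The cause was not tested. With no filter on low values, calls of Pbx3 (0.092), Mycn (0.11), Cdh5 (0.075) and Rag1 (0.085) were also lost in ZnF4-/- against wt, and those of Mycn (0.086), Cdh5 (0.063), Thbs1 (0.11) and Col1a2 (0.11) in ZnF4-/- against ZnF1-/-. In fits of only the 4 libraries compared, the calls of Hoxb6 (0.065), Pbx3 (0.052), Mycn (0.084), Cdh5 (0.072) and Rag1 (0.063) were lost against wt, and those of Hoxb6 (0.051), Cdh5 (0.06), Thbs1 (0.058), Col1a2 (0.059) and Pecam1 (0.052) against ZnF1-/-. Of the other values of single genes, 790 kept direction and side of the threshold, 191 lost their call and 31 gained one. Unknown depth and values rounded to 0.1 RPKM limit what can be said of the Hox genes below 1 RPKM.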
